A study of Mus musculus with 18 samples.

Results

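Tumor cells with high surface levels of both CD29 and CD24 were set against tumor cells with low levels of both, in sorted cells of mouse mammary tumors. The arrays were chosen by their titles: 3 arrays of CD29 high CD24 high cells (CD29H CD24H) and 3 arrays of CD29 low CD24 low cells (CD29L CD24L), 6 of 18 arrays in all, each population taken from tumors 1, 2 and 7. The same tumors gave 3 arrays of CD29H CD24L and 3 of CD29L CD24H cells, which entered the fit and are used below to place the differences. Tumors 1 and 2 are labelled as transplant generation 1, tumor 7 carries no generation, and no genotype, age or treatment is stated. The study sought genes that mark tumor-initiating cells and is known to have worked with transplanted p53-null tumors and a gate against lineage-positive cells; neither is stated in the labels used here. In transplanted tumors host stroma and leukocytes remain among the cells that can be sorted.

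CD29 is the integrin beta1 chain, encoded by Itgb1, through which cells hold on to the extracellular matrix. CD24, encoded by Cd24a, is a small glycosylated surface protein that is abundant on mammary epithelium and on some immature blood cells. In the normal mammary gland the combination of both proteins is used to enrich basal cells, among them those able to regrow a gland, and in mammary tumors the same gates have been used to enrich cells that start a tumor on transplantation. Leukocytes and other stromal cells can fall into a gate set by low staining of both proteins unless they are removed by their own surface markers.

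The values are probe-set signals (fluorescence intensity on a linear scale), scaled so that the trimmed mean was the same on all arrays. Differences are given on the scale log2(signal + 32), as CD29H CD24H minus CD29L CD24L with the standard error (n = 3 tumors), so a fold change of a dim gene is understated. They were fitted with limma on 10916 genes with the tumor as a block, and a gene was called at a Benjamini-Hochberg adjusted p below 0.05. In each list of 3 signals the order is tumor 1, tumor 2, tumor 7. The actin 3′/5′ signal ratio, a measure of how far the amplified RNA reaches towards the 5′ end, was 72.5, 23.2 and 51.5 on the CD29H CD24H arrays, against 99.3, 14.4 and 63.9 on the CD29L CD24L arrays. Tumor 2 had the lowest ratio in both populations, and the populations overlapped. The number of arrays limits the precision of every value.

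Neither sort marker passed the test in RNA. Itgb1 had signals of 1893, 534 and 4529 in CD29H CD24H cells, against 1118, 458 and 2064 in CD29L CD24L cells. It was higher in the CD29H CD24H cells of each tumor, and the populations overlapped across tumors. The difference was 0.69 ± 0.51 (SE; limma adjusted p = 0.522), and 6 of 6 probe sets had the same sign. In CD29L CD24H cells Itgb1 had 1049, 1490 and 8532, above the CD29H CD24H cells of tumors 2 and 7. In CD29H CD24L cells it had 3152, 5660 and 5620. Cd24a had signals of 44031, 33643 and 37305 in CD29H CD24H cells, against 43384, 18257 and 41916 in CD29L CD24L cells. Only tumor 2 showed a clear gap, in a difference of 0.24 ± 0.27 (SE; limma adjusted p = 0.691) that turned to -0.11 once the tumor 2 array of CD29L CD24L cells was dropped. The gates were set on surface protein, and Cd24a RNA was abundant on all 6 arrays. Epithelial genes were bright in both populations: Epcam, an epithelial adhesion protein, had signals of 14387, 20072 and 25940.5 in CD29H CD24H cells, against 20399.7, 18494 and 10442 in CD29L CD24L cells. The Epcam difference was 0.31, whereas those of the keratins Krt8 and Krt18 and the cadherin Cdh1 were -0.68, -0.88 and -0.42.

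Of 10916 genes tested, 58 differed between CD29H CD24H and CD29L CD24L cells: 13 were higher (0.119% of those tested) and 45 were lower (0.412%). All 58 had the same sign in the 3 tumors, as did 36.3% of all genes tested. The populations did not overlap for 9 of the higher and 42 of the lower genes, where all 3 arrays of one population lay above all 3 of the other. Over all genes tested, such a gap was found for 5.38% in the higher and 5.43% in the lower direction. The lower genes moved further, with a median difference of -2.12 against 1.55 for the higher ones. At an unadjusted p under 0.05 there were 1787 genes.

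The count rests on few arrays. When the tumor 2 array of CD29H CD24H cells was dropped, 1 gene was called, Icos. Dropping 1 of the other CD29H CD24H arrays left 11 (tumor 1) or 13 (tumor 7) genes, and dropping the tumor 1 array of CD29L CD24L cells left 12. Dropping a CD29L CD24H array left 17 (tumor 1) or 20 (tumor 7), whereas 114 were called once the tumor 7 array of CD29H CD24L cells was dropped. After a median shift of the arrays 38 genes were called, 15 higher and 23 lower, so the excess of lower genes was smaller on that scaling. With the actin ratio as a covariate beside the block 196 genes were called, and these included all 58. Without tumor 1, and again without tumor 2, 0 of the called genes were higher. Lcp1, Ctnnd2, Hus1, Mbnl3, Zc3hav1l, Crip1, Zeb2, Arsi and Samhd1, described below as called, were called in 4 to 8 of 29 alternative settings. The called genes Lgals3, Cd274, Srgn, Traf1, Tnfrsf1b, Nfkbie, Il18r1, Ctla2a, Aar2, Rnf125 and Malat1 were not followed through these settings.

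**Figure D1:**
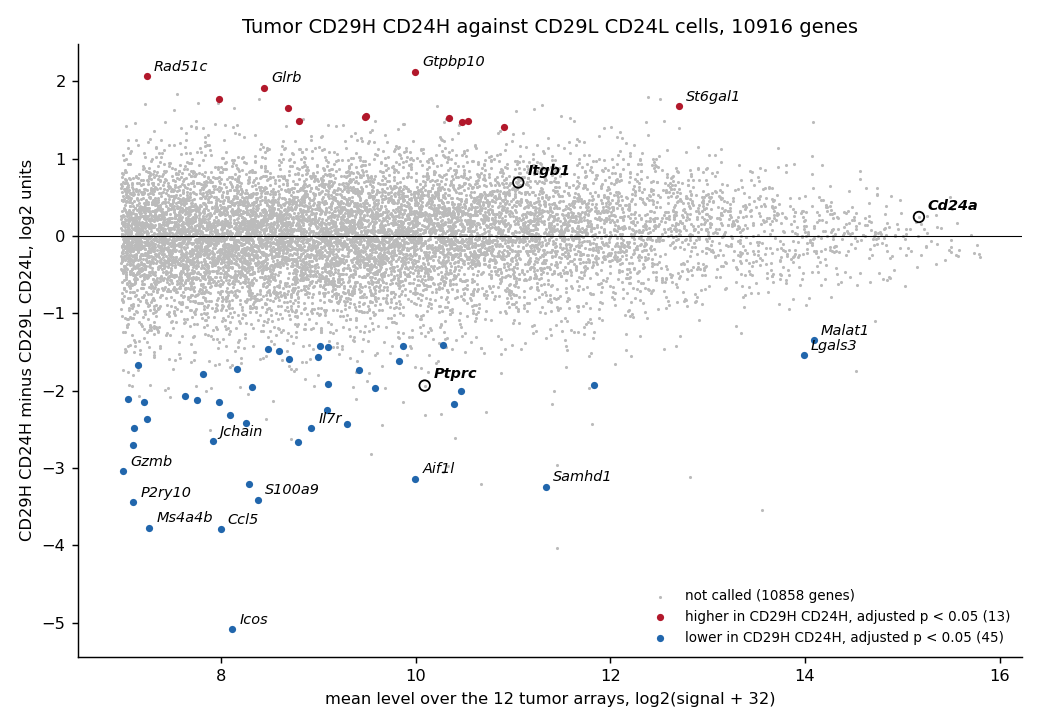
Each point is 1 of 10916 genes, with its mean level over the 12 tumor arrays on the x axis and the difference of CD29H CD24H minus CD29L CD24L cells on the y axis, both in log2 units of signal + 32. The 45 lower genes (blue) reach to -5.08 for Icos and the 13 higher genes (red) reach 2.12 for Gtpbp10, while both sort markers (circles) lie near the uncalled genes.

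The largest difference was in Icos, a T-lymphocyte gene that was lower in CD29H CD24H cells. T cells are the adaptive lymphocytes that recognise antigen through the T cell receptor, and those carrying CD8 kill target cells with granule proteins. Icos, the inducible costimulatory receptor of activated T cells, had signals of 99.6, 64.4 and 7.65 in CD29H CD24H cells, against 5697, 927 and 3525 in CD29L CD24L cells. Every CD29L CD24L array was far above every CD29H CD24H array, and the difference was -5.08 ± 0.53 (SE; limma adjusted p = 0.000925), or 33.9-fold on the offset scale. Cd8a, a chain of the CD8 coreceptor, had 83.1, 89.7 and 58.6 in CD29H CD24H cells, against 2058, 331 and 1276 in CD29L CD24L cells (difference -3.20 ± 0.58, limma adjusted p = 0.0325). All 5 of its probe sets had the same sign, the weakest at -0.17. The CD29H CD24L cells of tumors 2 and 7 had 672 and 691 of Cd8a, above the tumor 2 value of CD29L CD24L cells. Il7r, the receptor chain for interleukin 7 that keeps naive and memory T cells alive, had 298, 379 and 172 in CD29H CD24H cells, against 2719, 1278 and 1311 in CD29L CD24L cells (difference -2.48 ± 0.40, limma adjusted p = 0.0184). For these 3 genes the gap was narrowest in tumor 2, whose CD29L CD24L array had the lowest T-cell signals of that population.

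Further T-cell genes followed the same order. The segment Trav9d-3 of the T cell receptor alpha chain had 193, 146 and 130.4 in CD29H CD24H cells, against 1719, 632 and 1379.9 in CD29L CD24L cells, a difference of -2.66 ± 0.41. Near-identical copies of that segment exist, so its signal can hold those of its relatives, and 4 of its 5 probe sets had the same sign. Cd69, an early activation marker of lymphocytes, had 71.3, 76.4 and 6.16 in CD29H CD24H cells, against 705, 173 and 464 in CD29L CD24L cells, a difference of -2.49 ± 0.47. Fyb, an adaptor of T cell receptor signalling, differed by -2.25 ± 0.36, and P2ry10, a receptor of lymphocytes coupled to G proteins, by -3.45 ± 0.42. P2ry10 had 27.3, 19.5 and 62.6 in CD29H CD24H cells, against 937, 429 and 803 in CD29L CD24L cells. It also had signal in normal mammary cells titled CD29P CD24H, at 554 and 373. Limma adjusted p-values of these 4 genes were 0.0148, 0.0373, 0.015 and 0.00314. In bulk RNA, fewer cells of a type and less RNA per cell cannot be told apart.

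Genes of cytotoxic lymphocytes were lower as well. Ccl5, a chemokine that attracts T cells and is stored by CD8 cells and natural killer cells, had signals of 84.8, 31.9 and 74.4 in CD29H CD24H cells, against 1224, 2315 and 686 in CD29L CD24L cells. Here tumor 2 had the widest gap, and the difference was -3.79 ± 0.51 (SE; limma adjusted p = 0.00539). Gzmb, the granzyme B protease of cytotoxic granules, had 22.9, 10.03 and 74.7 in CD29H CD24H cells, against 727, 331 and 466 in CD29L CD24L cells (difference -3.04 ± 0.48, limma adjusted p = 0.015). Ms4a4b, a membrane protein of T cells in the mouse, had 64.4, 34.9 and 22.3 in CD29H CD24H cells, against 1314, 369 and 1625 in CD29L CD24L cells (difference -3.77 ± 0.49, limma adjusted p = 0.00539). Its second probe set had the opposite sign.

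**Figure D2:**
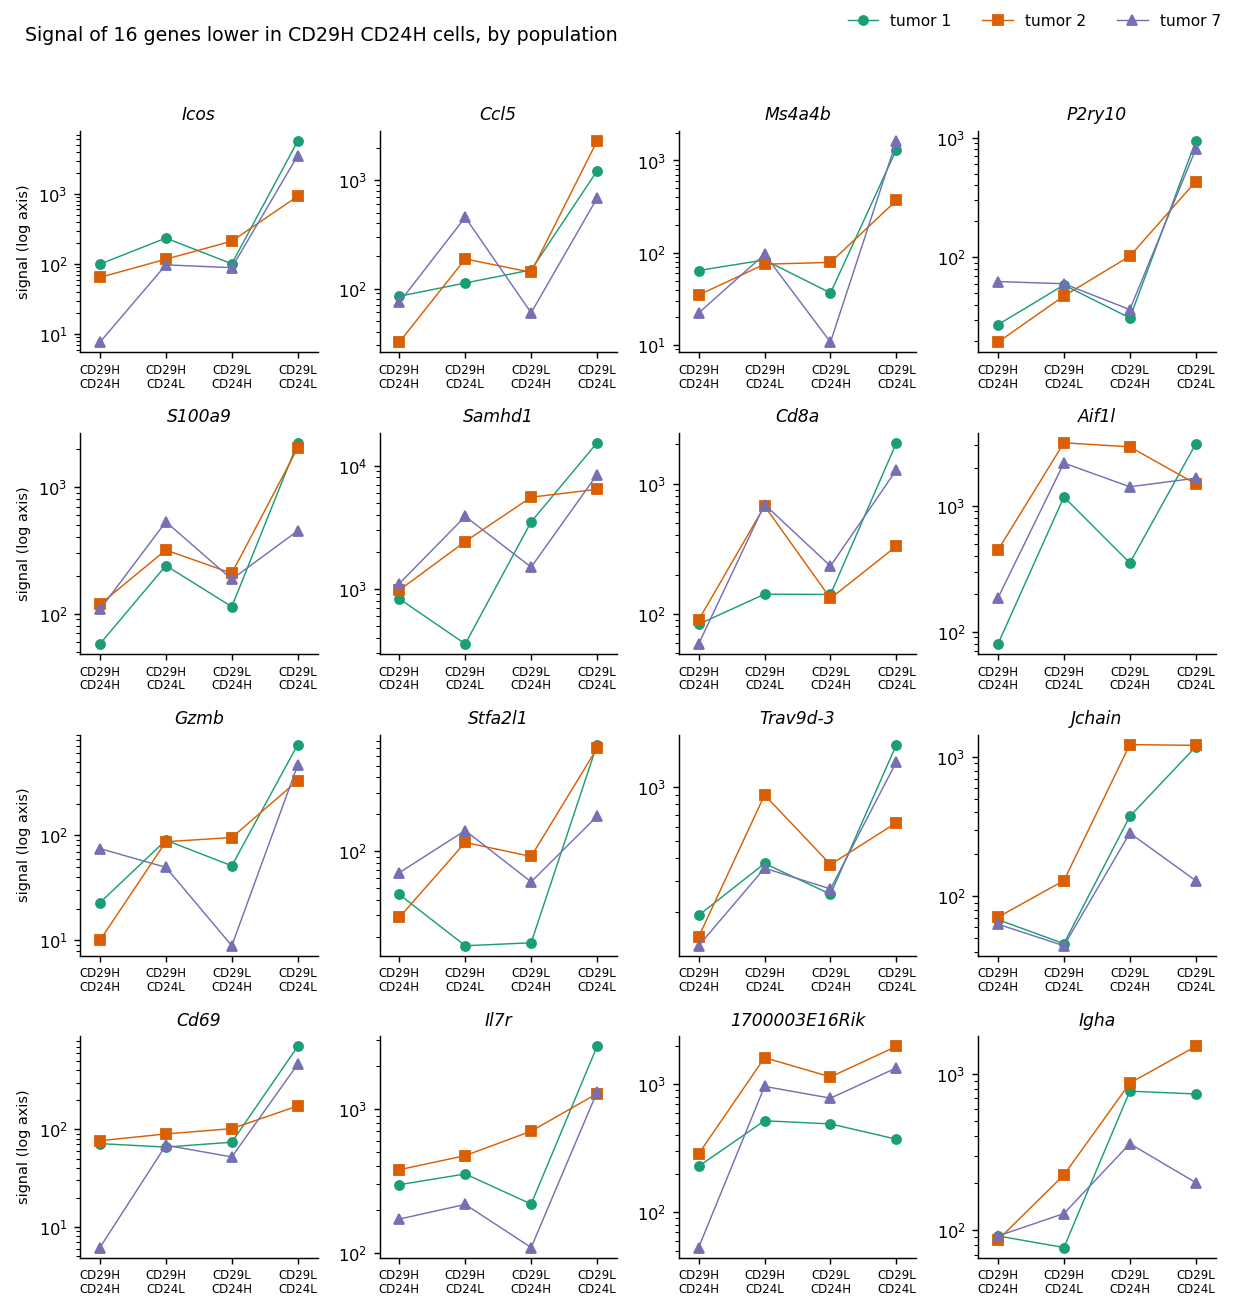
Signal on a log axis of the 16 genes with the largest lower values in CD29H CD24H cells, for the 4 sorted populations on the x axis; each line joins the arrays of 1 tumor. Icos, Ms4a4b, P2ry10 and Gzmb are highest on the CD29L CD24L array of every tumor with the other 3 populations well below, whereas Aif1l and 1700003E16Rik are low at the CD29H CD24H end, and Jchain and Igha are also high in CD29L CD24H cells.

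Whole marker lists were read by their counts and medians, since the lists were drawn up with results of these data known. Of 19 T-cell genes on the array 17 had a negative difference and the median was -1.23. Over all 18193 genes on the array 9119 were negative and the median was -0.0014. Over all genes tested 48.7% were negative, with a median of 0.015. Only 6 of the 19 passed the brightness filter, 3 of them lower at the call threshold (Icos, Cd8a and Il7r) and 0 higher. Over all genes tested 0.412% were called lower and 0.119% higher, shares that stand beside the counts of this and every later list. Members that are bright only in CD29L CD24L cells pass that filter through those cells. The counts of this and every later list therefore describe the list and do not test it. The summed signal of the T-cell list was 1568, 2116 and 1006 in CD29H CD24H cells, against 14075, 4753 and 9213 in CD29L CD24L cells. The 3 CD3 chains of the T cell receptor complex were too dim for the test. Cd3g had 8.12, 6.45 and 2.73 in CD29H CD24H cells, against 330.3, 127 and 364 in CD29L CD24L cells. Cd3d had 48.3, 11.03 and 8.72 in CD29H CD24H cells, against 117, 61.7 and 59.7 in CD29L CD24L cells. Cd3e had 27.1, 71.4 and 12.7 in CD29H CD24H cells, against 606, 64.7 and 273 in CD29L CD24L cells, so that in tumor 2 it was slightly higher in CD29H CD24H cells. Cd4 stayed at 53.6 or below on all 6 arrays.

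Of 15 genes of cytotoxic and natural killer cells, 11 were negative with a median of -1.68, and 3 of the 5 tested were called lower (Ccl5, Ms4a4b and Gzmb), beside 0.412% of all genes tested. Here too, members bright only in CD29L CD24L cells pass the filter through those cells, so the count does not test the list. Their summed signal was 844, 546 and 599 in CD29H CD24H cells, against 6507, 4592 and 5199 in CD29L CD24L cells. The pan-leukocyte list had 19 of 19 genes negative, with a median of -1.41 over the array and 2 of 13 tested genes called lower (0.412% over all genes tested). Those were Cd52, a small surface glycoprotein of lymphocytes and monocytes, at -2.32 ± 0.39, and Lcp1, the leukocyte actin-bundling protein L-plastin, at -1.41 ± 0.30 (limma adjusted p = 0.024 and 0.0471). Both also had signal in normal mammary cells titled CD29P CD24H, at 818 and 1357 for Cd52 and 1620 and 1632 for Lcp1. Ptprc, which encodes the leukocyte surface phosphatase CD45, had 428, 877 and 1028 in CD29H CD24H cells, against 2982, 2428 and 3316 in CD29L CD24L cells. Its populations did not overlap, and its difference of -1.94 ± 0.45 did not pass (limma adjusted p = 0.0604).

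Neutrophil genes made a further group. S100a9, which with S100a8 forms the calcium-binding alarmin calprotectin of neutrophils, had 57.7, 119 and 108 in CD29H CD24H cells, against 2235, 2039.5 and 451 in CD29L CD24L cells. Its signal in the CD29L CD24L cells of tumor 7 was well below that of the other tumors, and the difference was -3.41 ± 0.49 (SE; limma adjusted p = 0.0102). Stfa2l1, a stefin-type inhibitor of cysteine proteases, had 44.4, 28.8 and 66.8 in CD29H CD24H cells, against 741, 693 and 193 in CD29L CD24L cells (difference -2.70 ± 0.54, limma adjusted p = 0.0439). Over the neutrophil list 12 of 14 genes on the array were negative with a median of -1.21, and these were the 2 of 10 tested genes called (0.412% of all genes tested were called lower). That count does not test the list, since members bright only in CD29L CD24L cells pass the filter through those cells. The summed signal of the list was 4606, 5914 and 6918 in CD29H CD24H cells, against 41067.5, 27987 and 10409.8 in CD29L CD24L cells.

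Macrophage genes had negative differences without a call. All 18 on the array were negative, with a median of -1.14, and 0 of 17 tested passed. Without overlap between the populations 5 of the 17 were lower, beside 5.43% of all genes tested. C1qb, a chain of the complement protein C1q made by macrophages, had 1158, 1572 and 780.2 in CD29H CD24H cells, against 1887, 7661 and 1964 in CD29L CD24L cells (difference -1.42 ± 0.35, limma adjusted p = 0.0825). Ccr2, the receptor that draws monocytes to tissues, had 63.9, 99.2 and 82.5 in CD29H CD24H cells, against 769, 185 and 419 in CD29L CD24L cells (difference -1.92 ± 0.49, limma adjusted p = 0.0888). Over the tested genes the list's median differed between tumors, at -0.093 in tumor 1, -1.62 in tumor 2 and -1.14 in tumor 7. Csf1r, the receptor for the macrophage growth factor, was bright in both populations, at 4617, 10047 and 1954 in CD29H CD24H cells, against 4499, 16835 and 4181 in CD29L CD24L cells.

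A pair of antibody genes was lower in CD29H CD24H cells, with wider gaps in tumors 1 and 2 than in tumor 7. Jchain, the joining chain of polymeric antibodies, had 67.9, 70.8 and 63.0 in CD29H CD24H cells, against 1187, 1215 and 129.5 in CD29L CD24L cells (difference -2.66 ± 0.51, limma adjusted p = 0.0373). Igha, the constant region of the IgA heavy chain, had 92.0, 86.9 and 91.9 in CD29H CD24H cells, against 745, 1502 and 202 in CD29L CD24L cells (difference -2.42 ± 0.44, limma adjusted p = 0.0325). In CD29L CD24H cells Jchain also reached 375, 1230.0 and 285 and Igha 777, 874 and 358. The 2 genes are the called members among 6 tested of a B-cell and plasma-cell list, in which 9 of 13 genes on the array were negative. Over all genes tested 0.412% were called lower. Ms4a1, a surface protein of B cells, and Cd79a, a chain of the B cell receptor, stayed at or below 113 on all 6 arrays.

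Among chemokines, Ccl5 was called and 16 of 17 genes were negative, with a median of -0.79. Interferon-response genes were negative for 15 of 15 on the array, with a median of -0.82 and 0 of 14 tested called. Oas2, an antiviral enzyme induced by interferon, had 251.2, 92.2 and 135 in CD29H CD24H cells, against 1004, 308 and 389.6 in CD29L CD24L cells (difference -1.55 ± 0.39, limma adjusted p = 0.0828). MHC class II genes, which present antigen to CD4 T cells, were negative for 5 of 7 with a median of -0.64 and no call among 5 tested. Chemokine receptors had a median of -0.34 and no call among 5 tested. Whether leukocytes in the CD29L CD24L gate carry these differences was not tested.

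Other called genes lie outside the leukocyte lists. Of the 45 lower genes 32 are in no list used here. Several of these act in immune signalling: Traf1 (-2.12 ± 0.33) and Tnfrsf1b (-1.43 ± 0.29) belong to the tumor necrosis factor receptor pathway, Nfkbie (-1.62 ± 0.29) encodes an inhibitor of NF-kappaB, Il18r1 (-2.15 ± 0.42) is an interleukin 18 receptor chain, and Cd274 (-1.43 ± 0.30) is the checkpoint ligand PD-L1. Cd274 had 352, 269.6 and 163 in CD29H CD24H cells, against 1029, 927 and 402 in CD29L CD24L cells, and the populations did not overlap. For Il18r1 they did overlap, with 6.36, 89.0 and 301 in CD29H CD24H cells, against 419, 292 and 894 in CD29L CD24L cells. Normal mammary cells titled CD29P CD24H had 1185 and 1169 of Il18r1. Srgn, the granule proteoglycan serglycin, had 2123, 2496 and 1679 in CD29H CD24H cells, against 7522, 11838 and 5646 in CD29L CD24L cells (difference -1.92 ± 0.33). Penk, the precursor of enkephalin opioid peptides, had 53.8, 23.0 and 11.2 in CD29H CD24H cells, against 381, 252 and 203 in CD29L CD24L cells (difference -2.36 ± 0.43). These genes other than Penk were picked out after their values were seen, and the limma adjusted p of all 7 lay between 0.0148 and 0.0471.

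Some lower genes kept a clear signal in CD29H CD24H cells. Samhd1, an enzyme that breaks down nucleotides for DNA synthesis, had 828, 974 and 1100.5 in CD29H CD24H cells, against 15293, 6411 and 8439 in CD29L CD24L cells. The difference was -3.25 ± 0.65 (SE; limma adjusted p = 0.0439), and 4 of its 5 probe sets had the same sign. Crip1, a small LIM-domain protein, had 775, 324 and 692 in CD29H CD24H cells, against 1926, 3834 and 2512 in CD29L CD24L cells (difference -2.18 ± 0.45, limma adjusted p = 0.0471). Lgals3, the sugar-binding protein galectin 3, had 10946, 5568 and 13540.5 in CD29H CD24H cells, against 34534, 22347 and 26785 in CD29L CD24L cells (difference -1.55 ± 0.31, limma adjusted p = 0.0439). Zeb2, a transcription factor known for its part in mesenchymal transition and also expressed by macrophages, had 141, 248 and 273 in CD29H CD24H cells, against 397, 2516 and 695 in CD29L CD24L cells (difference -1.92 ± 0.38, limma adjusted p = 0.0439). It was the called member of 12 tested mesenchymal genes, of which 9 were negative with a median of -0.58.

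The 13 genes higher in CD29H CD24H cells had smaller differences, and 12 of them are in no list used here. Homologous recombination repairs broken DNA from an intact copy. Rad51c, which acts in that repair, had 335, 306 and 139 in CD29H CD24H cells, against 62.7, 34.3 and 13.8 in CD29L CD24L cells. The populations did not overlap, and the difference was 2.07 ± 0.37 (SE; limma adjusted p = 0.0325), or 4.19-fold on the offset scale. Its second probe set differed by only 0.28. Fignl1, an ATPase that also acts in that repair, had 504, 682 and 1042 in CD29H CD24H cells, against 167, 178 and 288 in CD29L CD24L cells (difference 1.65 ± 0.32, limma adjusted p = 0.0376), with its other probe set of opposite sign. Hus1, a part of the clamp that signals damaged DNA to the checkpoint, is in no list and had 947, 1279 and 1604 in CD29H CD24H cells, against 296, 475 and 470.4 in CD29L CD24L cells (difference 1.55 ± 0.32, limma adjusted p = 0.0471). Its second probe set differed by only 0.20. In the list of homologous recombination and Fanconi genes, Rad51c was the called member of 17 tested, 15 were positive and the median was 0.33.

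The gene with the smallest adjusted p among the higher ones was Gtpbp10, a GTPase of the mitochondrial ribosome. It had 2705, 1707 and 1816 in CD29H CD24H cells, against 676, 349 and 364 in CD29L CD24L cells. All 3 tumors gave similar differences, of 1.95, 2.19 and 2.22, for a mean of 2.12 ± 0.31 (SE; limma adjusted p = 0.0102). Both probe sets had the same sign, and the other one differed by 0.45. St6gal1, a sialyltransferase that caps sugar chains of surface proteins, was the brightest of the higher genes, with 7138, 18002 and 12497 in CD29H CD24H cells, against 2004, 6014 and 3992 in CD29L CD24L cells (difference 1.68 ± 0.31, limma adjusted p = 0.0325). Integrin beta1 is among the proteins it is known to modify. Its second probe set had the opposite sign.

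The remaining higher genes were Glrb, the beta chain of the glycine receptor (1.92 ± 0.36), Pabpc4l, a relative of the poly(A)-binding proteins (1.78 ± 0.34), Prr3 (1.53 ± 0.28), the arylsulfatase Arsi (1.49 ± 0.30), the muscleblind-type splicing regulator Mbnl3 (1.48 ± 0.30), Zc3hav1l (1.47 ± 0.30), the neural delta-catenin Ctnnd2 (1.41 ± 0.29) and 4930579G24Rik (1.54 ± 0.30). Limma adjusted p-values of these 8 lay between 0.0325 and 0.0467. Glrb, Mbnl3, Ctnnd2 and 4930579G24Rik overlapped between the populations. The weakest probe set differed by 0.49 for Glrb, 0.16 for Mbnl3, 0.85 for Ctnnd2 and 1.12 for Pabpc4l. Glrb had 723, 2036 and 312 in CD29H CD24H cells, against 145, 496 and 74.5 in CD29L CD24L cells, so that it was higher in each tumor while tumor 7 stayed below the tumor 2 value of the other gate. Mbnl3 had 4293, 3214 and 1610.0 in CD29H CD24H cells, against 1864, 1062 and 476 in CD29L CD24L cells.

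**Figure D3:**
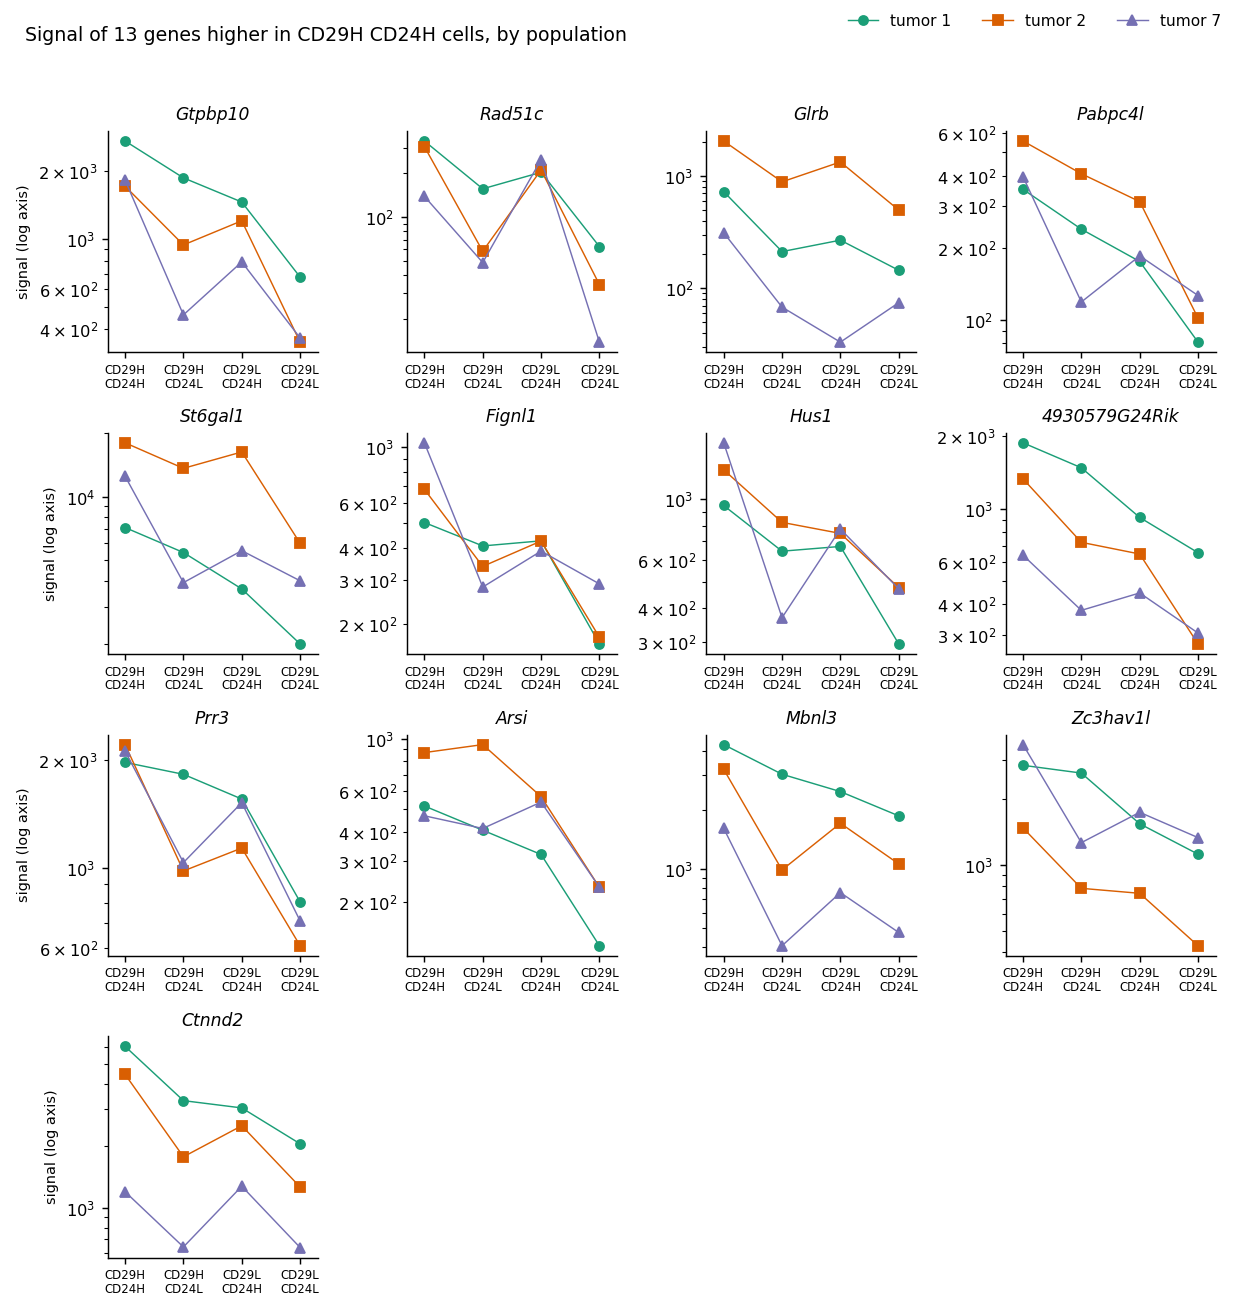
Signal on a log axis of the 13 genes called higher in CD29H CD24H cells, for the 4 sorted populations on the x axis, with 1 line for each tumor. In every panel and tumor the CD29H CD24H array is above the CD29L CD24L array, by 1.41 (Ctnnd2) to 2.12 (Gtpbp10) log2 units on average, and the other populations mostly lie between.

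Promoters of called genes were read to show the sequences around their starts, 250 bases before to 50 after, from RefSeq (GRCm38.p6). Windows were found for 47 of the 58 genes, 12 higher and 35 lower. The matches searched on both strands were TGACGTCA (cAMP response element), TTTCGCGC and TTTGGCGC (E2F), TGAGTCA (AP-1), TATAAA (the letters of a TATA element), a kappaB motif and an interferon-response motif. The windows of Gtpbp10 and Rad51c are shown as the 2 largest of the higher genes, and those of Gzmb and Ms4a4b as lymphocyte genes of the lower side, with the matches in capitals: TGACGTCA in Gtpbp10, TGACGTCA and TTTCGCGC in Rad51c, TGAGTCA in Gzmb and TATAAA in Ms4a4b. In Ms4a4b the match begins 140 bases before the start.
Gtpbp10, chr5:5559492-5559791, strand minus: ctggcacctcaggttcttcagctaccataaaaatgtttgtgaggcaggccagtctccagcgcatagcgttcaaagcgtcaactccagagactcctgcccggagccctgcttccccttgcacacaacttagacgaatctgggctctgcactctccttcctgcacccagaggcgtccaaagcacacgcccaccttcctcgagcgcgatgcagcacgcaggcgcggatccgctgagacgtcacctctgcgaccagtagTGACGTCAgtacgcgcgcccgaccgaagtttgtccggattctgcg
Rad51c, chr11:87404457-87404756, strand minus: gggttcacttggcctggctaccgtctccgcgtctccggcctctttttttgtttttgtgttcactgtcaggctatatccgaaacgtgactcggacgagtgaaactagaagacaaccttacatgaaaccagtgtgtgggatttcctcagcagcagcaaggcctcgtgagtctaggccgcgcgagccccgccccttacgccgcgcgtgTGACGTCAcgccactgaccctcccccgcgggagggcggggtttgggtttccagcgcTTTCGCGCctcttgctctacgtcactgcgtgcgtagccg
Gzmb, chr14:56262285-56262584, strand minus: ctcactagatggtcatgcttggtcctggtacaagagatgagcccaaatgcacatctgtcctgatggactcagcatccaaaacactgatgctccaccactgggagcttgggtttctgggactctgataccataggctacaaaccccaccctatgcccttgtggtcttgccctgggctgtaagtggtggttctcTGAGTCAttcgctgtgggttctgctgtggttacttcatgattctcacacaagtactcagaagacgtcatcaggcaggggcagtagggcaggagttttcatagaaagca
Ms4a4b, chr19:11443308-11443607, strand plus: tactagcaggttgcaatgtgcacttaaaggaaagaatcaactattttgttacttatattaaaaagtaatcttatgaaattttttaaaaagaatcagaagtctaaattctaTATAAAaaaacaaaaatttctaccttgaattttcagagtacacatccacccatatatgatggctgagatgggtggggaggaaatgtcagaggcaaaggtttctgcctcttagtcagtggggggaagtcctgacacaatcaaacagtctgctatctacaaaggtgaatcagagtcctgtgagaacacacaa

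TGACGTCA was present in 1.79% of all 32851 windows, in the windows of 2 of the 12 higher genes (Gtpbp10 and Rad51c) and in 0 of the 35 lower ones. TTTCGCGC was present in 0.323% of all windows and in Rad51c, and TTTGGCGC in 0.514% and in Zeb2. TGAGTCA was present in 5.2% of all windows and in 5 of the 35 lower genes, Ctla2a, Glrx, Gzmb, Nfkbie and Zeb2, with 0 of the higher ones. TATAAA was present in 13.6% of all windows and in 5 of the 35 lower genes, among them Ms4a4b and S100a9, with 0 of the higher ones. The interferon-response motif stood in 3.44% of all windows and in 2 lower genes, Srgn and Tnfrsf1b, and the kappaB motif in 1.63% and in none of the 47. Some genes have several windows, and any window counted. A match describes the letters and not the binding of a factor, and the windows shown and motifs were chosen with the genes' values known.

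Genes of cell division had mostly positive differences without a call. Of 20 mitosis genes 18 were positive, with a median of 0.69 beside 0.015 for all genes tested, and 0 passed. Bub1, a kinase of the spindle checkpoint, had 1896, 2059.7 and 1425 in CD29H CD24H cells, against 1037, 755 and 644 in CD29L CD24L cells (difference 1.12 ± 0.31, limma adjusted p = 0.103). The median was 0.46 in tumor 1, 1.33 in tumor 2 and 0.18 in tumor 7. Of 24 DNA replication genes tested 20 were positive, with a median of 0.49 and 0 called; by tumor it was 0.76, 0.60 and -0.10. Rrm2, the ribonucleotide reductase subunit that supplies DNA building blocks, had 8713, 9949 and 11334 in CD29H CD24H cells, against 4285, 2762 and 3721 in CD29L CD24L cells (difference 1.48 ± 0.33, limma adjusted p = 0.0541). Rfc5, a subunit of the clamp loader, had 1035, 1609.5 and 735 in CD29H CD24H cells, against 443, 690.4 and 250.03 in CD29L CD24L cells (difference 1.27 ± 0.30, limma adjusted p = 0.0604). For Bub1, Rrm2 and Rfc5 the populations did not overlap. Without overlap 2 of the 20 mitosis genes and 5 of the 24 replication genes were higher, beside 5.38% of all genes tested.

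No gene of the epithelial lists was called. The luminal list had 6 of 14 tested genes positive with a median of -0.075, the basal list 6 of 10 with a median of 0.35, and the epithelial junction list 2 of 13 with a median of -0.42, and 0 genes were called in each. Trp63, the basal transcription factor p63, had 7526, 3517 and 451 in CD29H CD24H cells, against 4219, 1329.8 and 224 in CD29L CD24L cells (difference 1.04 ± 0.34, limma adjusted p = 0.147). Krt14, a basal keratin, had 3640.3, 4513 and 293 in CD29H CD24H cells, against 5941, 8204 and 446 in CD29L CD24L cells (difference -0.71 ± 0.27, limma adjusted p = 0.211). Trp63 and Krt14 pointed in opposite directions in all 3 tumors, and tumor 7 was low in both populations. Krt17, another basal keratin, was also negative, at -0.87. Cldn4, a tight-junction protein, had 673, 1841 and 1701 in CD29H CD24H cells, against 3488, 2391 and 3434 in CD29L CD24L cells, and did not overlap (difference -1.23 ± 0.36, limma adjusted p = 0.121). Pgr, the progesterone receptor, had 1534, 2163 and 63.2 in CD29H CD24H cells, against 449, 238 and 76.4 in CD29L CD24L cells (difference 1.51 ± 0.47, limma adjusted p = 0.134), and parted in tumors 1 and 2. Of the 14 luminal genes tested 8 were negative, among them the transcription factor Gata3 at -1.24.

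No gene of the stromal lists was called. Of 20 fibroblast and collagen genes 19 were negative, with a median of -0.66 and 0 called, and the median by tumor was -0.11, 0.028 and -1.88. Col6a2, a chain of collagen VI, had 2943, 2366 and 543 in CD29H CD24H cells, against 3448, 4599 and 3509.6 in CD29L CD24L cells (difference -1.27 ± 0.43, limma adjusted p = 0.156). Pcolce, which enhances collagen processing, had 1069.6, 552 and 232 in CD29H CD24H cells, against 1712, 1776 and 2103 in CD29L CD24L cells (difference -1.77 ± 0.52, limma adjusted p = 0.124). The summed signal of the list was 28165 to 69347 in CD29H CD24H cells, against 62324 to 107026 in CD29L CD24L cells, and far above both in CD29H CD24L cells, at 332263 to 390852. Pericyte genes had a median of -0.41 over 5 tested and endothelial genes -0.34 over 7, with 0 called; Pecam1, a defining endothelial surface protein, stayed at 12.6 or below on all 6 arrays. The 5 erythroid genes on the array were all too dim for the test, and of 6 platelet and 4 adipocyte genes 2 and 1 were tested, with 0 called.

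**Figure D4:**
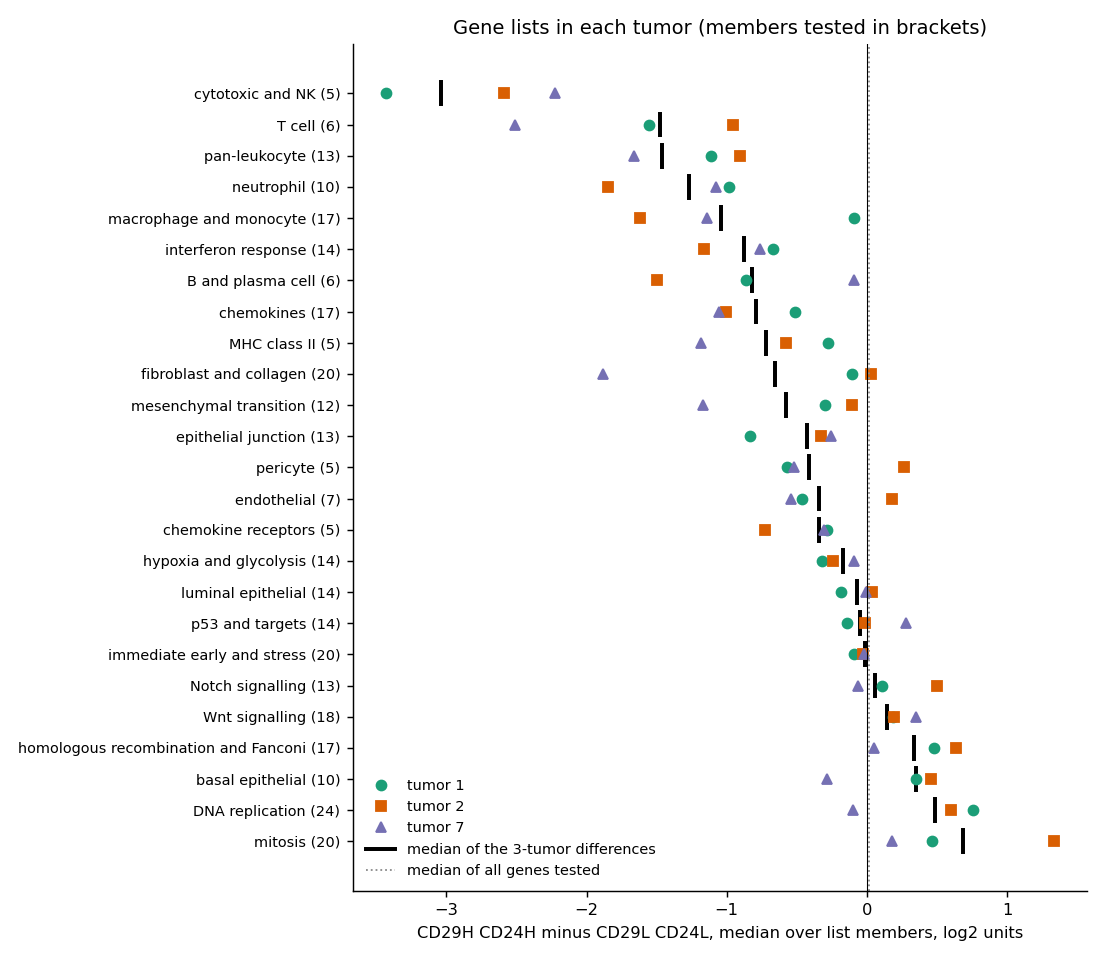
Median difference of CD29H CD24H minus CD29L CD24L cells over the tested members of each gene list (x axis, log2 units), with a bar for the median of the mean differences and a point for each tumor. The cytotoxic list lies lowest at -3.04 over its 5 tested members (-1.68 over all 15 on the array) and the mitosis list highest at 0.69; tumor 7 stands apart at -1.88 in the fibroblast list, and tumor 1 at -0.093 in the macrophage list.

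Signalling lists showed medians near that of all genes, with 0 called in each: 0.14 for Wnt (18 tested), 0.060 for Notch (13), -0.050 for p53 and its targets (14), -0.014 for immediate early and stress genes (20) and -0.17 for hypoxia and glycolysis (14). The p53 list had 7 positive and 7 negative members. In it Sesn2, a stress-induced regulator of growth signalling, had 459.7, 279 and 330.5 in CD29H CD24H cells, against 3032, 810.5 and 831 in CD29L CD24L cells and did not overlap (difference -1.78 ± 0.38, limma adjusted p = 0.0518). Mdm2, the ligase that degrades p53, had 2807, 1955 and 857 in CD29H CD24H cells, against 5451, 3391 and 5171 in CD29L CD24L cells (difference -1.43 ± 0.40, limma adjusted p = 0.114). Zmat3, a p53 target, pointed the other way, with 813, 359 and 954 in CD29H CD24H cells, against 771, 209 and 375 in CD29L CD24L cells (difference 0.68 ± 0.35, limma adjusted p = 0.35). Pdk1, a kinase that holds back pyruvate oxidation, differed by 1.08 ± 0.30 and Hk2, which starts glycolysis, by -1.17 ± 0.39 (limma adjusted p = 0.109 and 0.156).

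The populations that are high for only one marker show on which side a gene parts. They were averaged per gene and set against CD29H CD24H cells and against CD29L CD24L cells in the same fit, and all 3 comparisons share arrays, so their values are given side by side only. Against that average, CD29H CD24H cells had 6 genes higher (0.055%) and 171 lower (1.57%). The average in turn had 15 genes higher (0.137%) and 18 lower (0.165%) than CD29L CD24L cells. Of the 45 genes lower in CD29H CD24H than in CD29L CD24L cells, 12 also passed between the average and CD29L CD24L cells, 6 passed between CD29H CD24H cells and the average, 0 passed in both and 27 in neither. The count against the average, 177 in all, dropped to 0 when the tumor 2 array of CD29H CD24H cells was left out and to 1 when the tumor 7 array was. It was 5 with both arrays of lowest actin ratio left out, an alternative added once the data had been seen. The count between the average and CD29L CD24L cells, 33 in all, was 0 when tumor 1 was dropped. Dropping single arrays gave 5 (tumor 1, CD29L CD24L) to 153 (tumor 7, CD29L CD24L).

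The 12 genes that set CD29L CD24L cells apart from the average included 7 from the T-cell, cytotoxic and neutrophil lists. Icos had 234, 117 and 97.1 in CD29H CD24L cells and 101, 212 and 88.5 in CD29L CD24H cells, so that the average minus CD29L CD24L cells was -4.03 (limma adjusted p = 0.00213) and CD29H CD24H cells minus the average was -1.05 (adjusted p = 0.303). The average minus CD29L CD24L cells was -3.43 for Ms4a4b, -3.08 for P2ry10, -2.77 for Ccl5, -2.53 for Gzmb, -2.41 for Stfa2l1, -2.36 for Il7r and -2.27 for S100a9. Limma adjusted p-values of these 7 lay between 0.00213 and 0.0448. The others were Fyb, Il18r1, AW112010 and Ms4a6b.

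The 6 genes that set CD29H CD24H cells apart from the average are in none of the leukocyte lists. Aif1l, an actin-binding relative of allograft inflammatory factor 1, had 80.0, 444 and 185 in CD29H CD24H cells, against 1171, 3144 and 2172 in CD29H CD24L cells and 351, 2921 and 1409 in CD29L CD24H cells. It had 3082, 1486 and 1648 in CD29L CD24L cells, and the difference from the average was -2.77 ± 0.45 (SE; limma adjusted p = 0.0108), but the other 2 of its 3 probe sets had the opposite sign against CD29L CD24L cells. The gene 1700003E16Rik differed from the average by -2.19 ± 0.39 (adjusted p = 0.0133 by limma). Ctla2a, a cysteine protease inhibitor in the mouse, differed by -1.94, Aar2, a splicing-complex assembly factor, by -2.04, and Rnf125, a ubiquitin ligase, by -1.30. For Ctla2a the average rested mostly on CD29H CD24L cells, which had 6278, 6262 and 2020. In CD29L CD24H cells it had 851, 2269 and 300, against 1009.5, 681 and 144 in CD29H CD24H cells. Malat1, an abundant nuclear long noncoding RNA, had 5259, 9145 and 14119.8 in CD29H CD24H cells, against 8829, 35672 and 35601 in CD29L CD24L cells, and differed from the average by -1.29, with 7 of 7 probe sets of one sign against CD29L CD24L cells (difference -1.35 ± 0.24, limma adjusted p = 0.0325). Of the 13 higher genes, Glrb (1.49 ± 0.31) and Mbnl3 (1.13 ± 0.26) also passed against the average.

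**Figure D5:**
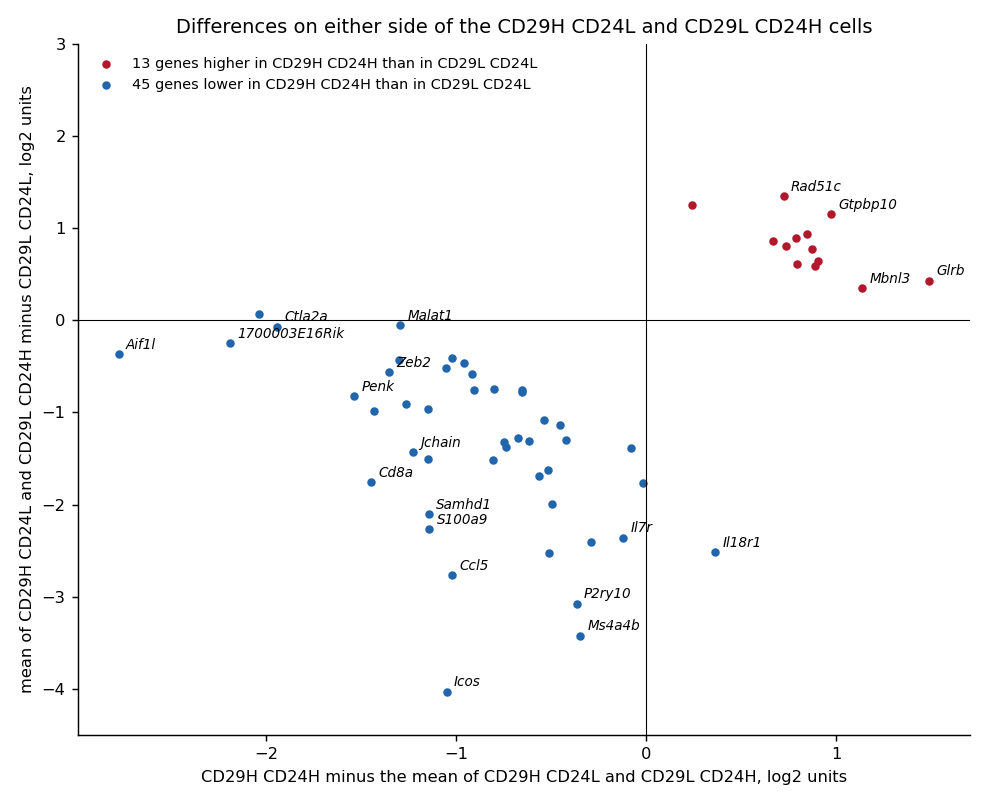
Each point is 1 of the 58 called genes, with CD29H CD24H minus the average of CD29H CD24L and CD29L CD24H cells on the x axis and that average minus CD29L CD24L cells on the y axis, both in log2 units. Icos lies lowest, Ms4a4b, P2ry10 and Il7r lie low and near the vertical zero line, Aif1l, Ctla2a and Malat1 lie to the left and near the horizontal zero line, and the 13 higher genes (red) are positive on both axes.

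Against the average, the largest calls included genes that did not pass against CD29L CD24L cells. Mrps33, a mitochondrial ribosomal protein, had 569.7, 3952 and 3183 in CD29H CD24H cells, against 461 to 670.2 in CD29H CD24L and 615 to 731 in CD29L CD24H cells (difference 1.63 ± 0.37, limma adjusted p = 0.0368). CD29L CD24L cells had 657, 2106 and 1553 of it, so that tumors 2 and 7 were high in both double-sorted populations. Kif11, a motor of the mitotic spindle, was 1.18 ± 0.28 above the average (limma adjusted p = 0.0496) and 0.71 ± 0.32 above CD29L CD24L cells (adjusted p = 0.289). Col5a3, a chain of collagen V, differed from the average by -2.66 ± 0.39 (limma adjusted p = 0.0108), where CD29H CD24L cells had 8591 to 13241 and CD29L CD24H cells 448 to 2399.6, and Bicc1, an RNA-binding protein, was 2.29 higher in the average than in CD29L CD24L cells. For Bicc1 the average stands for one population: CD29H CD24L cells had 2913, 3783 and 2535, whereas CD29L CD24H cells had 93.2, 541 and 125. Bicc1 had 144, 127 and 86.2 in CD29H CD24H cells, against 77.1, 188 and 169.9 in CD29L CD24L cells, a difference of -0.18 ± 0.40.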

How the data were processed

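RNA of sorted mouse mammary tumor and normal cells was hybridised to 1-colour Affymetrix arrays, and the deposited values are probe-set signals, a linear intensity, per the labels and the file headers. The authors' software was GCOS, version not given, per the submitters' processing notes, and every array had the same trimmed mean. It is unknown here whether the reference RNA array served for scaling. Depth does not apply to arrays, and their number limits the precision.

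Of 45101 probe sets, 64 controls were left out, 34945 had 1 gene symbol in the platform annotation, 932 several and 9160 none. The brightest probe set stood for each of 18193 genes (9010 had over 1), and the dimmest 40% of genes were left out. Values were taken as log2(signal + 32) and fitted over the 12 tumor arrays with limma 3.58.1 in R 4.3.3 (lmFit and eBayes with an intensity trend), with tumor as a block and Benjamini-Hochberg adjustment over 10916 genes at 0.05. The script was tested on simulated data. Figures were drawn with matplotlib 3.10.9.

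Tumor numbers in the titles pair the samples: each array's departure from its population mean had r of 0.389 to 0.728 with those of the same tumor (18 pairs), against -0.458 to -0.0526 between tumors (36 pairs). Departures within a population cancel out by construction, so positive values within a tumor make those between tumors negative on average. The second range is therefore no separate evidence of the pairing. The labels give no separate animals within a tumor. With tumor as a block, p-values measure the spread left among these arrays after tumor and population means, pooled over the sorted populations. No 2 arrays were alike beyond r = 0.980.

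Members and lists were chosen with earlier results of these data known. Named genes were Itgb1, Cd24a and Ptprc, the 15 largest positive and 20 largest negative called differences with 1 sign in 3 tumors, the 5 largest per direction in the other 2 comparisons, and up to 4 called members of each list, or the 3 of smallest p where none was called. Names beyond this rule (Epcam, Krt8, Krt18, Cdh1, Cd3d, Cd3e, Cd3g, Cd4, Ms4a1, Cd79a, Csf1r, Pecam1, Lgals3, Cd274, Srgn, Traf1, Tnfrsf1b, Nfkbie, Il18r1, Ctla2a, Aar2, Rnf125, Malat1, Glrx, AW112010, Ms4a6b) were chosen after their values were seen. Alternatives covered the offset, scaling, filter, probe-set rule, trend, block, the actin ratio as a covariate and each array or tumor left out.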

Additional observations from a re-analysis of the deposited data

Results flagged for a closer look

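Of the 45 genes lower in CD29H CD24H than in CD29L CD24L tumor cells, 29 (64.4%) were brighter on the array of normal mammary CD24L cells than on all 4 other normal cell arrays. This signal lies outside the tumor comparison, in an array none of the comparisons used. The same held for 2 of the 13 higher genes (15.4%) and for 2602 of 10916 genes tested (23.8%). Icos had a signal of 1803 on the normal CD24L array, against 73.1 to 195 on the others. Il7r had 1866, against 91.3 to 186, and Ms4a4b had 1163, against 37.7 to 76.1. Penk had 7419, against 56.9 to 332.5, and Zeb2 had 5251, against 17.4 to 88.6. S100a9 was dim on all of these arrays, at 23.2 on the normal CD24L array, and Jchain was lower there, at 101, than on each of the others, where it had 657 to 9828. Ccl5 was bright on all of them, at 4024 on the normal CD24L array and 1092 to 2626 on the others. Cd52 had 810 on the normal CD24L array, against 169 to 1357 on the others, and Lcp1 had 397, against 270 to 1632. There is 1 normal CD24L array, so the difference has no replicate check.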

How the results depend on the processing

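The 58 genes called between CD29H CD24H and CD29L CD24L cells were 26 with an offset of 1, 99 with a larger offset, 30 with quantile normalization, 38 with a median shift (15 higher and 23 lower, against 13 and 45), 30 without the filter, 13 with a 60% filter, 35 with the mean of probe sets, 37 without the trend, 27 with tumor as a random block and 196 with the actin ratio as a covariate beside the block. Without the tumor pairing (no replicate block) 4 remained, Icos, Ccl5, Ms4a4b and P2ry10, and the other comparisons gave 0 (700 at an unadjusted p under 0.05 by limma) and 3. Leaving out 1 array gave 1 to 114 genes, and leaving out a tumor 8 to 38. Without tumor 1 there were 8 (0 higher, 7 among the 58) and without tumor 2 38 (0 higher, 11 among the 58). Without tumor 7 there were 28 (9 higher, 14 among the 58). Without the 2 arrays of lowest actin ratio 47 were called, 1 higher and 16 among the 58. On the 6 arrays of the compared populations alone 57 were called, 10 higher and 34 among the 58. The 177 genes against the average were 96 with an offset of 1, 114 with quantile normalization, 111 without the filter, 116 with a 60% filter and 5 without the 2 arrays of lowest actin ratio, and 0 to 271 when arrays or tumors were left out. The 33 genes between the average and CD29L CD24L cells were 14 with the offset of 1 and 139 with the larger one, 13 with a 60% filter, 15 with the mean of probe sets, 53 with the actin covariate and 18 without those 2 arrays, and 0 to 153 when arrays or tumors were left out. The Cd24a difference was -0.073 and that of Cxcr4 -0.18 without those 2 arrays; leaving out arrays or tumors gave -0.11 to 0.47 for Cd24a and -0.24 to 0.95 for Cxcr4, and the mean of probe sets gave -0.21 for Cspg4. The cause was not tested. None of the 35 named called genes changed direction in any setting where it was tested; Icos was called in 28 of 28 settings and Gtpbp10 in 24 of 29, but Lcp1 and Ctnnd2 in 4 of 29, Hus1, Mbnl3, Zc3hav1l and Crip1 in 6, Zeb2 and Arsi in 7 and Samhd1 in 8. Called genes named beyond the naming rule were not followed in this way. Of 724 list medians over 29 settings and 25 lists, 25 moved by more than the spread between tumors. Signals near the offset limit the folds of dim genes.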
